A study of Mus musculus with 12 samples.

Results

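Interferon response genes are genes that cells switch on after interferons, the cytokines of antiviral defence, bind their receptors. The 44 genes described here were picked by gene symbol from the 10253 genes of the deposited RNA-seq table, and the rule used no expression value. All 44 had a row, and 42 passed the filter on low values (RPKM 1 or more in 3 or more libraries). Rsad2 and Tgtp1 stayed under it and were not tested. RPKM are read counts scaled to the length of a gene's exons and to the mapped reads of the library, so levels given in RPKM are per length and can be set side by side between genes.

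The libraries came from non-endothelial stromal cells (SCs), the fibroblast-like cells that build the scaffold of a lymph node, sorted by flow cytometry as CD45-CD24-CD31-Pdpn+ cells. Bulk RNA-seq was performed on 12 libraries in 4 groups of 3. These were gut-draining mesenteric lymph nodes (mLN) of specific pathogen-free mice (mLN SPF), mLN of germ-free mice (mLN GF), skin-draining peripheral lymph nodes of SPF mice (pLN SPF) and pLN of GF mice (pLN GF). All mice were BALB/c, and the study's methods name adult female animals, untreated in this experiment. The same methods give the SPF mice of this background as a CD90.1 line bred at one centre, while the GF animals were derived by cesarean section at another site and kept in isolators. The SPF mice were also given with a somewhat older age range than the GF mice, and both ranges overlap. Housing, colony and age therefore cannot be told apart. No source used here says whether a library held 1 animal or a pool, so p-values measure only the spread between these libraries.

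Interferons act through membrane receptors and the JAK kinases. Type I and type III interferons activate a transcription factor complex with STAT2 and IRF9 that binds the interferon-stimulated response element (ISRE), whereas interferon-gamma acts through the gamma-activated sequence (GAS). IRF1, itself induced by interferon-gamma, binds ISRE-like sequences as well. Some of the products bind viral RNA (IFIT proteins, OAS-like proteins, the kinase PKR) or sense it (RIG-I, MDA5, LGP2). Others tag proteins with the ubiquitin-like ISG15 or block virus entry at membranes (IFITM proteins). The GTPases of the GBP and IRG families attack the vacuoles of intracellular pathogens. In unchallenged tissue many of these genes are transcribed at a low tonic level.

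The promoters that carry these elements are shown first, because the genes differed in which element lies near their start site. RefSeq promoter windows on GRCm38.p6, 250 bases before to 50 bases after a start site, matched 36 of the 44 genes by symbol. Iigp1, Ifi27, Parp14, Rtp4, Zbp1, Usp18, Parp9 and Dhx58 had no match. Each window was searched on both strands for an ISRE core, spelled GAAANNGAAA, and for a GAS, spelled TTCNNNGAA. The ISRE core was present in 20 of the 36 genes (55.6%), against 3.99% of 27025 genes with a window. The GAS was present in 12 of 36 (33.3%), against 9.55% of all genes. Both occurred in 8 genes (22.2%, against 0.614% of all), namely Bst2, Eif2ak2, Gbp7, Ifitm3, Igtp, Irf2, Irgm2 and Tgtp1, and in 2 places an ISRE and a GAS match overlapped. Neither was found in Cmpk2, Dtx3l, Herc6, Ifitm1, Irf3, Irf7, Irf9, Oasl2, Samd9l, Sp100, Trim25 and Xaf1, where these letters are merely not in this window. Of 29 ISRE matches, 19 were centred within 150 bases before the start site. The 120 bases before a start site are printed for genes on which the results below turn, and for Ifit1 and Isg15 as examples of an ISRE alone. Matches are in capitals (a match on the opposite strand reads TTTCNNTTTC).
Ifit1 (chr19:34640769-34640888, plus strand): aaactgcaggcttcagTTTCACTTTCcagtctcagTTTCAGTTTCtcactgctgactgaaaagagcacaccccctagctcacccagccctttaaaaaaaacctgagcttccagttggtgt
Isg15 (chr4:156200819-156200938, minus strand): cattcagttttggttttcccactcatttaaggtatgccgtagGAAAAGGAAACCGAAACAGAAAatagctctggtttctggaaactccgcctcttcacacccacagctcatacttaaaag
Irf1 (chr11:53769894-53770013, plus strand): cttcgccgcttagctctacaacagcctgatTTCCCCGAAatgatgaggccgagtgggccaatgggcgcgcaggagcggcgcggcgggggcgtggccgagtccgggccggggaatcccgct
Irgm1 (chr11:48871421-48871540, minus strand): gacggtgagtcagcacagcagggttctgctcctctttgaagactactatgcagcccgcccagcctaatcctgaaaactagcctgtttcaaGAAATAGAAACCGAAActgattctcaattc
Igtp (chr11:58199436-58199555, plus strand): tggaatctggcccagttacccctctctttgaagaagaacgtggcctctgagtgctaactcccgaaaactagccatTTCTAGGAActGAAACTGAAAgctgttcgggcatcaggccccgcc
Gbp7 (chr3:142530216-142530335, plus strand): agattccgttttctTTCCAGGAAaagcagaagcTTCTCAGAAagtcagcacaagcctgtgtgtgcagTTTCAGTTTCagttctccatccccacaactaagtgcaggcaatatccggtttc
Ifitm2 (chr7:140955962-140956081, minus strand): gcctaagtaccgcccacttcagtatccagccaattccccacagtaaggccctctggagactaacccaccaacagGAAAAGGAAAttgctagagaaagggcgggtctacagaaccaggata
Ifitm1 (chr7:140967956-140968075, plus strand): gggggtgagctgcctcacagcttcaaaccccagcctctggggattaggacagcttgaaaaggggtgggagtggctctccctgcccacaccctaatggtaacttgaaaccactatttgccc
Cmpk2 (chr12:26469095-26469214, plus strand): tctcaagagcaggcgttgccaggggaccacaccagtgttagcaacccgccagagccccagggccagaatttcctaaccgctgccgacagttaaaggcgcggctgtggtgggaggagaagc

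Ifit1 carried 2 separate ISRE cores and Isg15 3 overlapping ones. The printed window of Irf1 had a GAS and no ISRE core. A further Irf1 window, whose 120 bases before the start site are chr11:53770353-53770472, held neither and is not printed. Irgm1 had 2 overlapping ISRE cores and no GAS, Igtp had 1 of each, and Gbp7 had 2 GAS matches and 1 ISRE core. Ifitm2 carried an ISRE core, and the windows of its neighbour Ifitm1 and of Cmpk2 held neither. A match is a description of letters and not evidence of a bound factor.

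**Figure D1:**
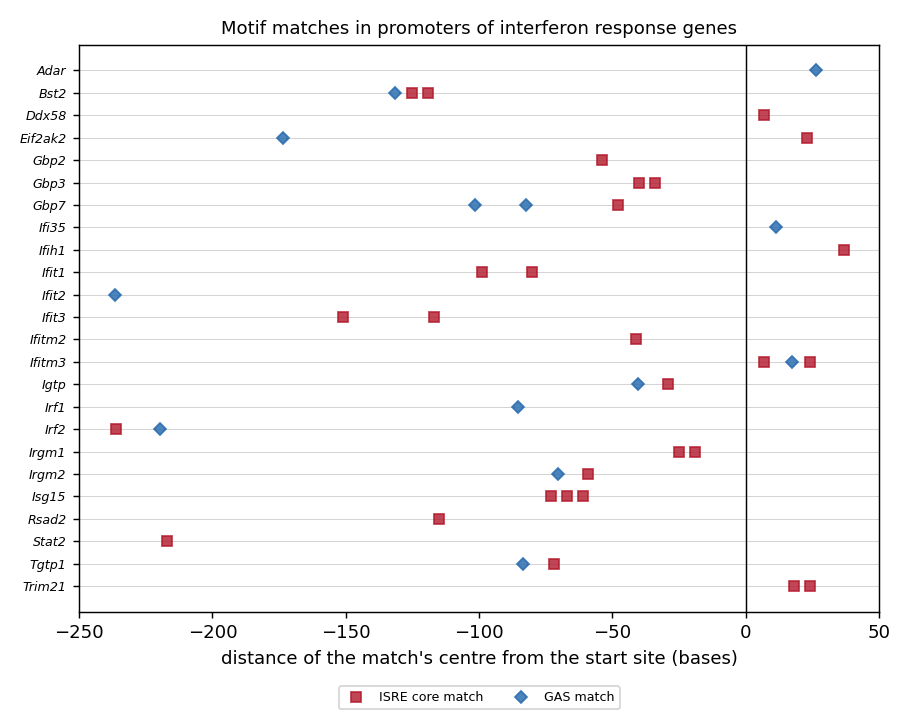
Motif matches in the promoter windows of the 24 interferon response genes that have any. The x axis is the distance in bases of a match's centre from the start site, squares are ISRE core matches and diamonds are GAS matches. Most matches lie before the start site, and those of Adar, Ddx58, Ifi35, Ifih1, Ifitm3 and Trim21 lie after it, as does the ISRE core of Eif2ak2.

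Several of the genes sit beside each other. With neighbours at most 150 kb apart, 18 of the 44 genes formed 7 clusters on GRCm38 (GENCODE annotation). The IFIT genes Ifit2, Ifit3 and Ifit1 spanned chr19:34550694-34650009, the GBP genes Gbp7, Gbp3 and Gbp2 chr3:142530342-142638008, and Ifitm2, Ifitm1 and Ifitm3 chr7:140954837-141010770. Parp14, Dtx3l and Parp9 lay at chr16:35832874-35972605 and Rsad2 and Cmpk2 at chr12:26442746-26479837. Irgm1 and Tgtp1 lay at chr11:48861968-48994172, and Igtp and Irgm2 at chr11:58199556-58222782. The annotated models of Igtp and Irgm2 overlap on the same strand, and those of Dtx3l and Parp9 overlap on opposite strands. The kit keeps no strand, so reads in these overlaps cannot be assigned with certainty. The same holds for reads shared by near-identical copies, above all within the IFITM, GBP and IRG families and between Ifit3 and Ifit3b or Tgtp1 and Tgtp2.

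Per library, 4.62 to 14.1 M reads were recovered from the RPKM steps, and log2 values of libraries of a group correlated at 0.973 to 0.994 across genes (Pearson). The fewest reads behind any tested interferon response gene in any library were 26, for Dhx58. The sorted cell type was checked by its markers, and 8 of 8 stromal markers were in the table with a summed level of 11031 to 17203 RPKM per library. In GF mice 2 of them passed both thresholds by location, Lum higher in mLN (1.35) and Pdgfrb lower (-1.03). None did in SPF mice or by housing. The 7 endothelial markers summed to 1.25 to 3.60 RPKM. Of 16 leukocyte markers 2 were in the table, Lyz2 and Cd79b, together at 1.53 to 5.21 RPKM. None of 4 epithelial markers had a row. The reticular cell markers of the T zone were Ccl19, Ccl21a, Il7, Clu and Fmod. Their sums were 191 to 466 RPKM in mLN SPF and 617 to 1040 in mLN GF. In pLN they were 8139 to 9413 RPKM in SPF and 10507 to 14195 in GF mice. These markers thus differed between groups as well. So did the perivascular markers, at 22.1 to 85.9 RPKM in the 6 mLN libraries and 407 to 543 in the 6 pLN libraries, and 5 of the 7 passed both thresholds as lower in mLN in either housing. In such bulk libraries fewer cells of a type and less RNA per cell cannot be told apart.

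Mean levels ran from Tgtp1, the lowest, to Ifitm3, the highest. By the mean over the 12 libraries the IFITM family, small membrane proteins that hinder virus fusion, stood highest. In mLN this did not hold for Ifitm1, whose 6 libraries lay at 18.0 to 69.5 RPKM, below those of Irf1 and Ifi27. Ifitm3 measured 938, 757 and 986 RPKM in mLN SPF, 750, 803 and 823 in mLN GF, 1222, 822 and 1050 in pLN SPF, and 1121, 1263 and 1420.25 in pLN GF. Irf1 had a mean of 138 RPKM over the 12 libraries and Ifi27, a mitochondrial and nuclear envelope protein, one of 116. In Ifi27 the libraries ranged from 134 to 143 RPKM in mLN SPF, 89.9 to 105 in mLN GF, 84.7 to 131 in pLN SPF and 105 to 124 in pLN GF.

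The RNA-binding IFIT proteins and the RNA sensors were low. Ifit1 measured 9.56, 11.7 and 11.9 RPKM in mLN SPF, 7.93, 6.99 and 9.93 in mLN GF, 11.2, 12.4 and 12.6 in pLN SPF, and 7.69, 13.2 and 9.73 in pLN GF. Ifit3 lay between 1.18 and 5.18 RPKM in every library. Ddx58, which encodes RIG-I, lay between 10.8 and 18.4 RPKM, and Dhx58, which encodes the regulator LGP2, between 1.38 and 3.41 RPKM. In the ISG15 pathway Herc6, the ligase that attaches ISG15 in mice, ranged from 1.74 to 4.13 RPKM. In the complex of the ubiquitin ligase DTX3L with PARP9, Dtx3l ranged from 6.55 to 11.54 RPKM, and the related Parp14 from 1.99 to 3.5. Gbp2 was the most abundant guanylate-binding protein at 20.4 to 33.5 RPKM. None of these 8 genes passed both thresholds in any comparison, and their libraries overlapped between at least some of the groups.

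Rsad2, which encodes the antiviral enzyme viperin, was barely detected. It measured 0.821, 0.713 and 0.766 RPKM in mLN SPF and 0.409, 0.409 and 0.578 in mLN GF, then 0.585, 0.852 and 1.22 in pLN SPF and 0.169, 0.304 and 0.446 in pLN GF. At both locations every SPF library was above every GF library, without a test. Tgtp1, a T-cell specific GTPase of the IRG family, measured 0, 0.0365 and 0 RPKM in mLN SPF and 0, 0.0202 and 0.0636 in mLN GF. Its pLN libraries lay at 0.267, 0.233 and 0.390 (SPF) and 0.450, 0.316 and 0.12 (GF), above all mLN libraries, again without a test.

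**Figure D2:**
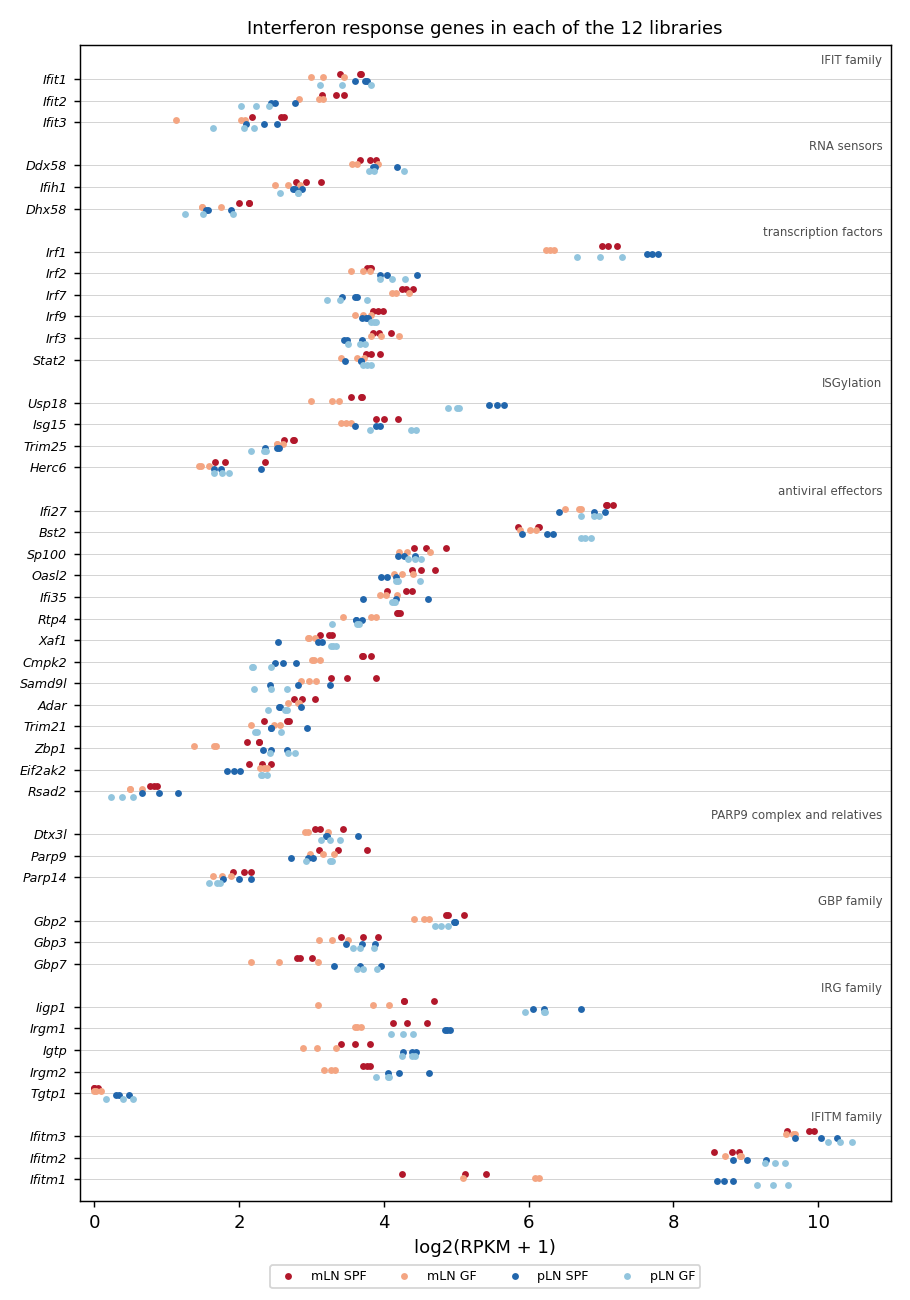
Level of each of the 44 interferon response genes in each of the 12 libraries, as log2(RPKM + 1) on the x axis, with genes grouped by role and ordered by mean level. Points are libraries, coloured by group. By mean level Ifitm3 and Ifitm2 lie highest and Rsad2 and Tgtp1 lowest, and the mLN libraries of Ifitm1, Iigp1 and Usp18 lie to the left of the pLN libraries.

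To ask how location bears on these genes, mLN was compared with pLN within each housing. Differences are log2 differences of group means on the log2(RPKM + 1) scale ± SE, which understates the change of low genes, and adjusted p-values are from limma with Benjamini-Hochberg adjustment over all 9764 genes tested. Both thresholds were passed where the adjusted p was below 0.05 and the group means differed 2-fold or more. In SPF mice 4 of 42 genes did so (9.52%), against 10.4% of all genes tested. Usp18, Iigp1 and Ifitm1 were lower in mLN (3 genes, against 6.41% of all genes), and Cmpk2 was higher (1 gene, against 3.99%). In GF mice 6 of 42 did (14.3%), all lower in mLN, against 11.4% of all genes (6.87% lower). These were Usp18, Gbp7, Igtp, Iigp1, Ifitm1 and Zbp1. The share of called genes was thus near the background in SPF mice. In GF mice it moved with the libraries used. Without replicate 2 of mLN GF 4 of 42 genes passed (9.52%), against 11.1% of all genes. Members had a median difference of 0.08 in SPF mice, beside 0.09 for all genes, and of -0.23 in GF mice, beside 0.00044 for all genes.

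Ifitm1 showed the widest gap of the 42 tested genes in both housings. It measured 41.8, 18.0 and 33.8 RPKM in mLN SPF and 69.5, 33.0 and 67.1 in mLN GF, but 450, 388 and 415 in pLN SPF and 665, 572 and 764 in pLN GF. The mLN and pLN libraries lay far apart, and the pLN mean was 13.4-fold the mLN mean in SPF mice and 11.8-fold in GF mice. The difference was -3.78 ± 0.28 in SPF mice (limma, adjusted p = 3.24e-08) and -3.60 ± 0.28 in GF mice (adjusted p = 6.05e-08). Its neighbours on chromosome 7 moved less. Ifitm2 differed by -0.28 ± 0.14 (limma, adjusted p = 0.142) in SPF and by -0.55 ± 0.14 (adjusted p = 0.00533) in GF mice. Ifitm3 gave -0.20 ± 0.15 (adjusted p = 0.345) and -0.67 ± 0.15 (adjusted p = 0.00225).

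Usp18, the protease that removes ISG15 from proteins and dampens signalling at the type I interferon receptor, measured 12, 11.8 and 10.7 RPKM in mLN SPF and 46.3, 49.6 and 43.0 in pLN SPF. In GF mice it measured 8.72, 7 and 9.43 RPKM in mLN and 28.6, 31.8 and 31.2 in pLN. All mLN libraries were below all pLN libraries, by 4.02-fold of the means in SPF and 3.64-fold in GF mice. Usp18 thereby differed by -1.92 ± 0.12 in SPF mice (limma, adjusted p = 5.16e-09) and by -1.76 ± 0.12 in GF mice (adjusted p = 1.54e-08). The other genes of the ISG15 pathway stayed under both thresholds. Isg15 itself was at 10.2 ± 0.542 RPKM in mLN GF and 17.8 ± 4.23 in pLN GF (mean ± SD, n = 3), a difference of -0.73 ± 0.16 (limma, adjusted p = 0.00181), whereas in SPF mice it gave 0.21 ± 0.16 (adjusted p = 0.333).

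The immunity-related GTPases (IRG), interferon-gamma-induced proteins that act on pathogen vacuoles, were lower in mLN as a family. At an adjusted p below 0.05 without a fold threshold, 4 of 4 tested IRG genes were lower in mLN in SPF mice and 4 of 4 in GF mice (13.8% and 18.4% of all genes were lower by that rule). Iigp1 measured 18.4, 24.8 and 18.5 RPKM in mLN SPF against 65.9, 105 and 72.8 in pLN SPF, and 15.8, 7.54 and 13.4 in mLN GF against 74.1, 60.8 and 72.9 in pLN GF. The groups did not overlap. The Iigp1 difference was -1.92 ± 0.22 in SPF mice (limma, adjusted p = 5.09e-06) and -2.46 ± 0.22 in GF mice (adjusted p = 3.21e-07). Igtp measured 9.61, 13.0 and 11.1 RPKM in mLN SPF, 9.12, 6.38 and 7.46 in mLN GF, 18.1, 19.9 and 20.8 in pLN SPF, and 20.6, 18.0 and 20.01 in pLN GF. It also separated by location, by -0.76 ± 0.14 in SPF (limma, adjusted p = 0.000368) and -1.26 ± 0.14 in GF mice (adjusted p = 2.11e-06). Irgm1 and Irgm2, which regulate the other IRG proteins, differed by -0.53 and -0.54 in SPF and by -0.62 and -0.75 in GF mice.

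Among the guanylate-binding proteins Gbp2, Gbp3 and Gbp7, Gbp7 passed the location test. Its libraries lay at 5.94, 7.03 and 6.18 RPKM in mLN SPF, 7.49, 3.49 and 4.85 in mLN GF, 8.97, 14.7 and 11.7 in pLN SPF, and 13.9, 12.2 and 11.4 in pLN GF. The mLN values were below the pLN values throughout, with -0.77 ± 0.20 in SPF (limma, adjusted p = 0.00676) and -1.15 ± 0.20 in GF mice (adjusted p = 0.000251). Without replicate 2 of mLN GF the GF difference was -0.93, under 2-fold. Gbp2 and Gbp3, on the same stretch of chromosome 3, passed neither location test, at -0.03 and -0.01 in SPF and -0.26 and -0.40 in GF mice.

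Among the antiviral effectors 2 genes passed both thresholds, in opposite directions. Cmpk2, a mitochondrial nucleotide kinase, measured 12.05, 13.1 and 12.04 RPKM in mLN SPF against 4.66, 5.94 and 5.09 in pLN SPF, and 7.06, 7.18 and 7.66 in mLN GF against 3.58, 4.44 and 3.51 in pLN GF. Here the mLN libraries were the higher ones, by 1.11 ± 0.12 in SPF (limma, adjusted p = 1.56e-06) and by 0.78 ± 0.12 in GF mice (adjusted p = 5.48e-05). Zbp1, a sensor of Z-form nucleic acids that can trigger cell death, measured 3.86, 3.31 and 3.83 RPKM in mLN SPF and 2.21, 1.60 and 2.16 in mLN GF. Its pLN libraries gave 4.42, 4.01 and 5.36 (SPF) and 4.38, 5.81 and 5.37 (GF). The mLN GF libraries stood lowest, and the difference was -1.05 ± 0.13 in GF mice (limma, adjusted p = 1.1e-05) and -0.26 ± 0.13 in SPF mice (adjusted p = 0.156). In GF mice Zbp1 fell under 2-fold without replicate 2 of mLN GF (-0.95) or without replicate 2 of pLN GF (-0.98). Bst2, which encodes the virus-tethering protein tetherin, was at 110 ± 4.85 RPKM in pLN GF beside 62.9 ± 4.85 in mLN GF, a difference of -0.79 ± 0.13 (limma, adjusted p = 0.000158).

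The transcription factors divided by location below the 2-fold line. Irf1 measured 128, 148 and 136 RPKM in mLN SPF and 220, 198 and 207 in pLN SPF, a difference of -0.60 ± 0.14 (limma, adjusted p = 0.00294). In GF mice the values were 77.8, 80.9 and 74.7 in mLN and 101, 155 and 125 in pLN, a difference of -0.68 ± 0.14 (adjusted p = 0.00101). Irf3, a constitutively made factor that is activated by nucleic acid sensing, went the other way. It measured 14.3, 13.4 and 16.1 RPKM in mLN SPF, 13.1, 17.5 and 14.6 in mLN GF, 11.9, 9.90 and 10.2 in pLN SPF, and 12.3, 11.7 and 10.4 in pLN GF. The Irf3 difference was 0.42 ± 0.13 in SPF (limma, adjusted p = 0.0195) and 0.36 ± 0.13 in GF mice (adjusted p = 0.0388). Irf7, the amplifier of type I interferon genes, was higher in mLN by 0.77 ± 0.14 and 0.75 ± 0.14. Stat2 lay between 9.67 and 14.4 RPKM in every library and passed in neither housing, and nor did its partner Irf9.

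At an adjusted p below 0.05 alone, 18 of 42 genes differed by location in SPF mice (42.9%, against 33.5% of all genes), 10 of them higher and 8 lower in mLN (19.7% and 13.8% of all genes). With median-of-ratios rescaling of the libraries this split was 6 higher and 9 lower. With the libraries of SPF mice paired by number in a replicate block, fitted to these groups alone, 19 genes passed, Sp100 in addition at 0.32 (limma, adjusted p = 0.0382). In GF mice 19 differed (45.2%, against 35.4%), 5 higher (Ifit2, Irf3, Irf7, Cmpk2 and Samd9l) and 14 lower (17.1% and 18.4% of all genes). In SPF mice the libraries of mLN and pLN did not overlap in 14 genes that were higher and 10 that were lower in mLN (26.8% and 16.7% of all genes). In GF mice this held for 7 higher and 19 lower (25.2% and 25% of all genes). The T zone and perivascular markers were lower in mLN in both housings. This was the direction of 8 of the 18 calls in SPF and 14 of the 19 in GF mice. The part of these markers in the result was not tested.

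**Figure D3:**
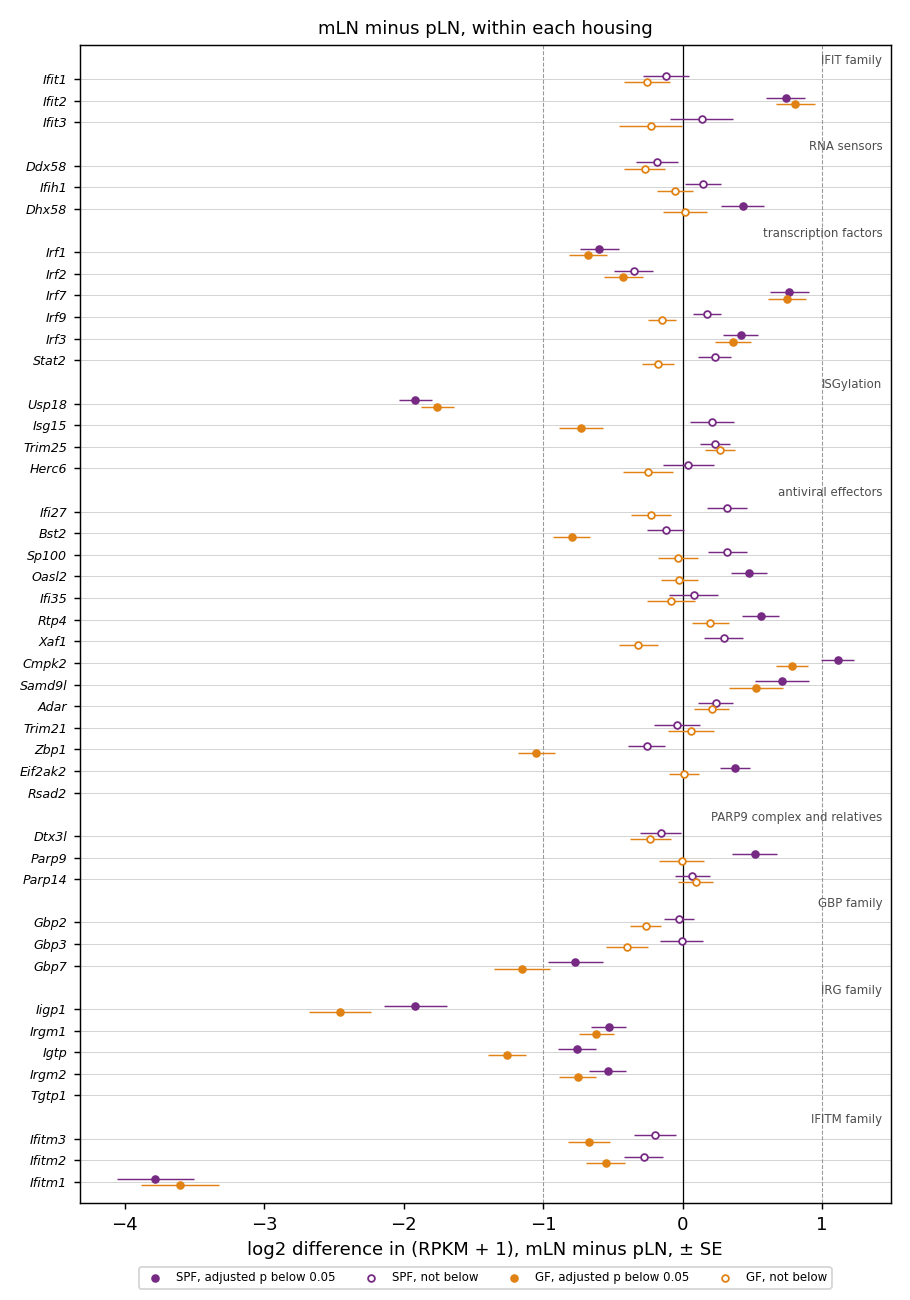
Difference between mLN and pLN for the 42 tested interferon response genes, as log2 difference in (RPKM + 1) ± SE on the x axis, in SPF mice (purple) and GF mice (orange). Filled points have an adjusted p below 0.05 and dashed lines mark 2-fold. Ifitm1 lies at -3.78 and -3.60, Iigp1 and Usp18 near -2, and Cmpk2 is the only gene beyond the line on the right.

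To ask whether the microbiota bears on the same genes, SPF was compared with GF mice within each location. No gene of the 42 passed both thresholds in mLN or in pLN, where 0.748% and 1.05% of all genes did. At an adjusted p below 0.05 alone, 7 of 42 genes (16.7%) differed in mLN and all 7 were higher in SPF mice, against 4.61% of all genes (2.53% higher). These were Irf1, Irgm1, Irgm2, Igtp, Gbp2, Cmpk2 and Zbp1, of which Irgm2 is named here because of its value. In pLN 5 of 42 did (11.9%, against 10.8% of all genes). Irf1, Irgm1 and Usp18 were higher in SPF mice there (3 genes, against 4.05% of all genes), and Bst2 and Eif2ak2 lower (2 genes, against 6.74%). Leaving out a library gave 3 (replicate 3 of mLN SPF), 4 (replicate 2 of mLN SPF, or replicate 3 of mLN GF or of pLN GF) or up to 11 (replicate 2 of pLN SPF) genes in mLN, in each case all higher in SPF mice, whereas without replicate 2 of mLN GF 5 genes passed and 1 of them, Ifitm1, was lower. With median-of-ratios rescaling the pLN split was 4 higher and 1 lower. At an unadjusted p below 0.05, which carries no correction, 21 of 42 genes differed in mLN (16.3% of all genes) and 13 in pLN (26% of all genes).

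By the adjusted p alone, Irf1 and Irgm1 were the genes higher in SPF mice at both locations. Irf1, whose libraries are given above, reached 138 ± 9.90 RPKM in mLN SPF and 77.8 ± 3.14 in mLN GF, and 208 ± 11.2 in pLN SPF and 127 ± 27.2 in pLN GF (mean ± SD, n = 3 each). SPF and GF libraries did not overlap at either location. The difference was 0.81 ± 0.14 in mLN (limma, adjusted p = 0.0026) and 0.73 ± 0.14 in pLN (adjusted p = 0.0047). Irgm1, chosen after its values were seen, measured 16.6, 23.1 and 19.1 RPKM in mLN SPF, 11.4, 11.1 and 11.9 in mLN GF, 28.3, 27.8 and 29.2 in pLN SPF, and 16.1, 20.2 and 18.3 in pLN GF. These groups did not overlap either, and Irgm1 differed by 0.71 ± 0.13 in mLN (limma, adjusted p = 0.00345) and 0.62 ± 0.13 in pLN (adjusted p = 0.00711). Among the other tested genes, Usp18, Gbp2, Cmpk2 and Parp14 also had all SPF libraries above all GF libraries at both locations. None of them passed the adjusted p at both. Of all genes 14.9% had all SPF libraries above all GF libraries in mLN, and 9.38% in pLN. The share of all genes without overlap at both locations was not counted, so no background stands beside this list.

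In mLN Cmpk2 was 1.70-fold and Zbp1 1.84-fold as high in SPF as in GF mice by their mean RPKM. Their differences were 0.69 ± 0.12 (limma, adjusted p = 0.00239) and 0.65 ± 0.13 (adjusted p = 0.00967). Without replicate 3 of mLN SPF, Zbp1 missed the threshold (adjusted p = 0.0508). In pLN the Cmpk2 difference was 0.36 ± 0.12 (adjusted p = 0.0568) and that of Zbp1 -0.14 ± 0.13 (adjusted p = 0.547). Igtp, Irgm2 and Gbp2 passed in mLN close to the threshold, with 0.50, 0.51 and 0.42 and limma adjusted p-values of 0.0482, 0.0431 and 0.0418, and each lost the call in 9 to 14 of 20 alternative settings. Iigp1 gave 0.75 ± 0.22 in mLN without passing (limma, adjusted p = 0.0752). Usp18 differed in pLN by 0.58 ± 0.12 (limma, adjusted p = 0.00754) and in mLN by 0.42 ± 0.12 (adjusted p = 0.0573).

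Bst2 and Eif2ak2, both chosen after their values were seen, were the genes lower in SPF mice. Bst2 measured 80.1, 59.0 and 75.6 RPKM in pLN SPF and 105, 109 and 115 in pLN GF, while the mLN libraries of both housings lay between 57.1 and 69.8. Only the pLN GF libraries stood apart, and the pLN difference was -0.62 ± 0.13 (limma, adjusted p = 0.00903). Eif2ak2, the gene of the RNA-activated kinase PKR, measured 2.56, 3.03 and 2.82 RPKM in pLN SPF and 3.96, 4.21 and 3.94 in pLN GF. Its mLN libraries of both housings lay between 3.41 and 4.44, so here the pLN SPF libraries stood apart. The pLN difference of Eif2ak2 was -0.41 ± 0.11 (limma, adjusted p = 0.0277), and it lost the call in 8 of 20 alternative settings. Ifitm1 had the most negative point estimates, at -0.84 ± 0.28 in mLN (limma, adjusted p = 0.113) and -0.67 ± 0.28 in pLN (adjusted p = 0.141). Without replicate 2 of mLN GF the mLN difference of Ifitm1 was -1.19 and passed both thresholds (limma, adjusted p = 0.014).

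The genes as a group leaned toward SPF in mLN. Of the 42, 38 had a difference above 0 there (90.5%, against 52.6% of all genes), with a median of 0.27 beside 0.01 for all genes. In 21 genes (50%) every mLN SPF library was above every mLN GF library, which held for 14.9% of all genes, and the reverse held for none, against 11.1%. By family, the median was 0.61 over the 4 tested IRG genes, 0.43 over the 4 genes of the ISG15 pathway, 0.38 over the IFIT and 0.38 over the GBP genes, 0.27 over the RNA sensors, 0.26 over the PARP9 group, 0.23 over the antiviral effectors, 0.16 over the transcription factors, and -0.10 over the IFITM genes. In pLN 24 of 42 genes lay above 0 (57.1%, against 40.6% of all genes), with a median of 0.05 beside -0.06 for all genes. There 7 genes had all SPF libraries above all GF libraries (9.38% of all genes) and 6 had them below (17.9%). No set was tested. The T zone markers moved with housing in mLN, where 3 of 5 passed both thresholds as lower in SPF mice, and 1 of 7 perivascular markers did so, and their part in the result was not tested.

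**Figure D4:**
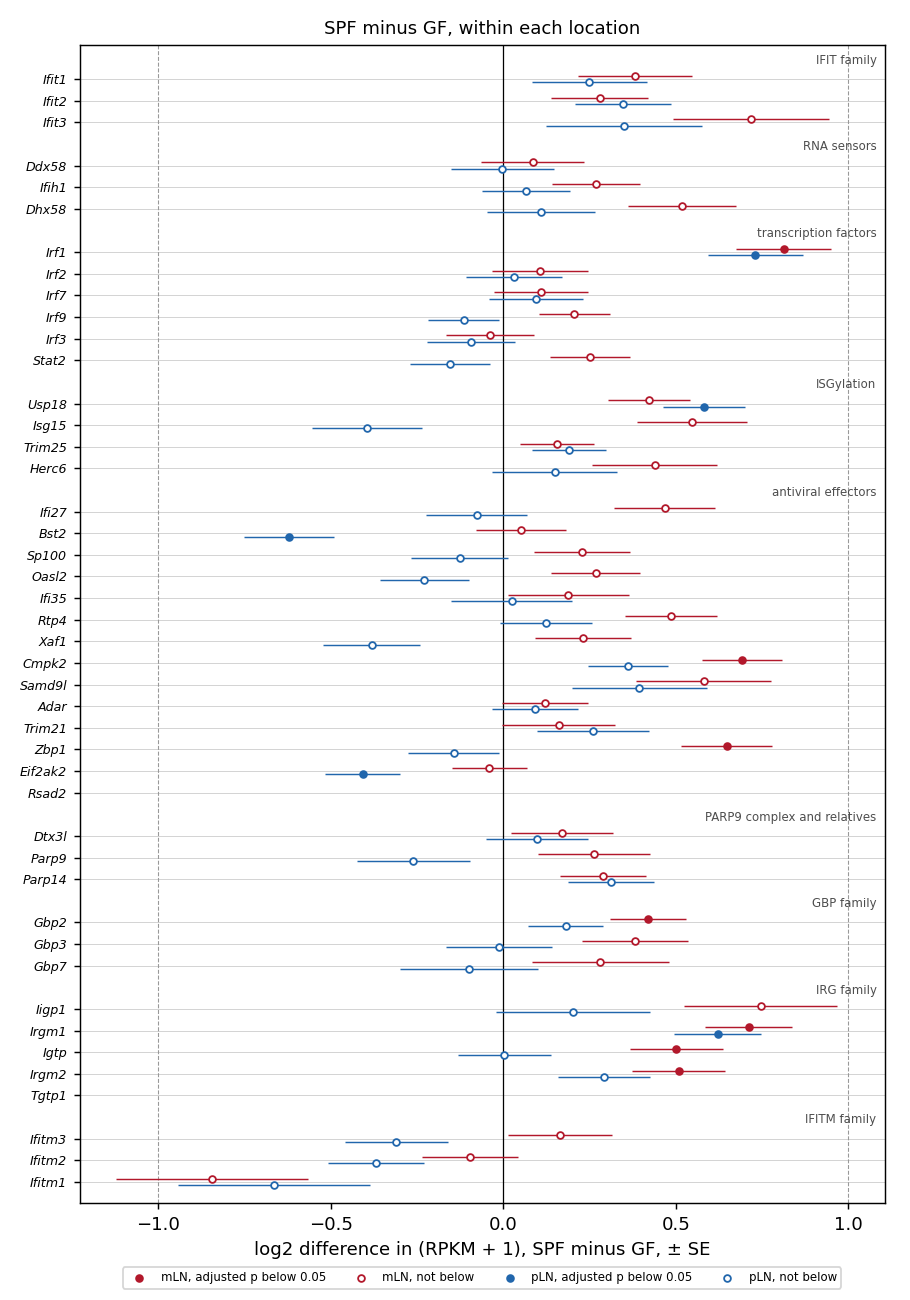
Difference between SPF and GF mice for the 42 tested interferon response genes, as log2 difference in (RPKM + 1) ± SE on the x axis, in mLN (red) and pLN (blue). Filled points have an adjusted p below 0.05 and dashed lines mark 2-fold. In mLN 38 of 42 points lie right of 0, and Irf1 and Irgm1 are filled at both locations.

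The difference between the housing effects of both locations was tested as an interaction, mLN minus pLN of SPF minus GF. It passed an adjusted p below 0.05 in limma in 0 of 42 genes (0.297% of all genes, 0.236% with the fold threshold). At an unadjusted p below 0.05, 12 of 42 did (28.6%, against 9.67% of all genes), and all 12 were positive (6.8% of all genes). The limma-voom fit on recovered reads gave 0 past both thresholds as well. The largest were Isg15 at 0.94 ± 0.22 and Zbp1 at 0.79 ± 0.19, each with a limma adjusted p of 0.113. Isg15, chosen after its values were seen, measured 13.8, 15.0 and 17.3 RPKM in mLN SPF, 9.60, 10.2 and 10.7 in mLN GF, 14.5, 13.8 and 11.1 in pLN SPF, and 13.0, 20.7 and 19.8 in pLN GF. Its SPF libraries were all above GF in mLN, while in pLN the groups overlapped. Without replicate 1 of pLN GF, the lowest of its group, Isg15 passed at 1.14 (limma, adjusted p = 0.0151), so 1 library decides that call. In Stat2, Irf9 and Xaf1 every SPF library was above every GF library in mLN and below every one in pLN. Their limma interaction adjusted p-values were 0.45, 0.493 and 0.299. Of all genes 14.9% lay above without overlap in mLN and 17.9% below in pLN. The share that did both was not counted. Irf1 and Irgm1 gave interactions of 0.08 and 0.09, both with an SE below 0.2.

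**Figure D5:**
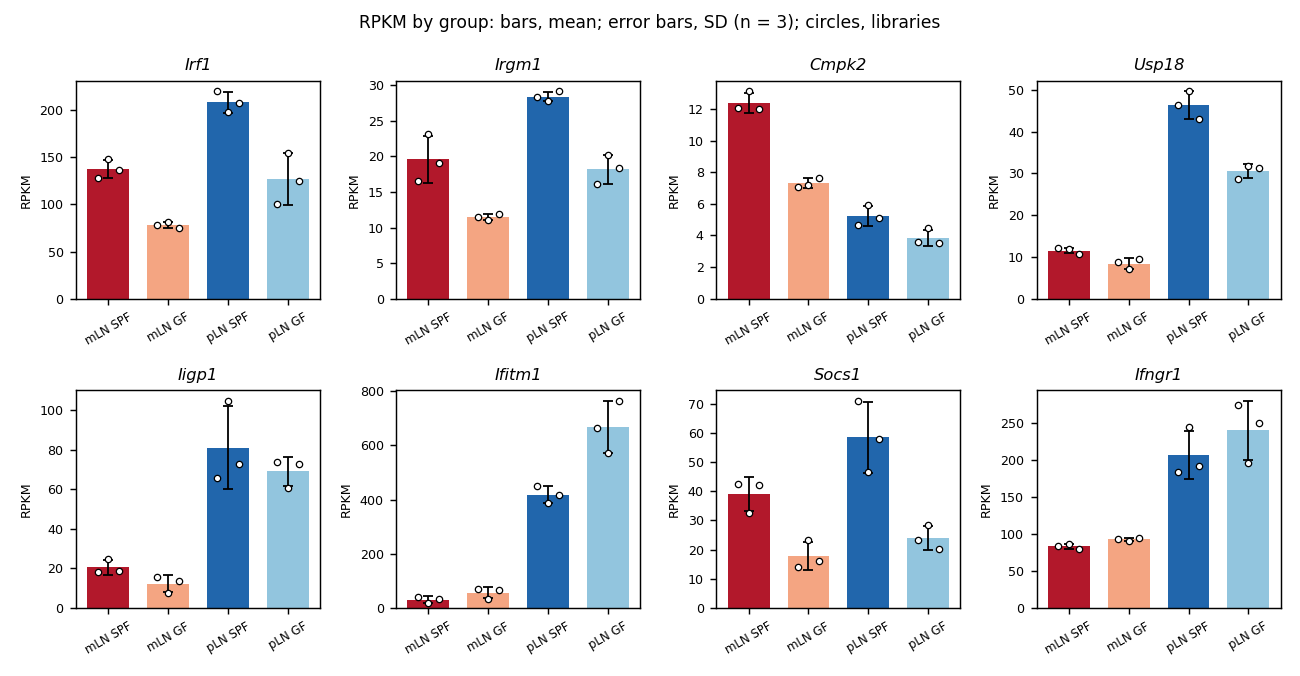
RPKM of 8 genes in the 4 groups. Bars are group means starting at 0, error bars are SD (n = 3) and circles are libraries. Irf1, Irgm1 and Socs1 are higher in SPF than in GF mice at both locations, Usp18, Iigp1, Ifitm1 and Ifngr1 are higher in pLN than in mLN, and Cmpk2 is higher in mLN.

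The rest of the interferon pathway was looked up from lists of receptors, kinases, sensors and further induced genes. None of 9 interferon ligand genes had a row in the table, and these are not analysed here. Among 5 receptor genes tested, Ifngr1, a chain of the interferon-gamma receptor, was lower in mLN past both thresholds, by -1.29 ± 0.14 in SPF (limma, adjusted p = 1.89e-06) and -1.35 ± 0.14 in GF mice (adjusted p = 1.06e-06). Of 10 kinases, STATs and regulators, the phosphatase gene Ptpn1 was lower in mLN, by -1.28 and -1.30. Of 12 genes of nucleic acid sensing Tmem173, which encodes STING, was lower in mLN by -1.77 and -1.63, and of 3 other IRF genes Irf8 by -3.54 and -2.91. Each of these lists thus held 1 gene past both thresholds in either housing. Among all genes 6.41% were lower in mLN by that rule in SPF and 6.87% in GF mice. In lists this short 1 gene is not a result about the list.

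Socs1, the feedback inhibitor of JAK kinases, was the 1 gene of all these lists that passed both thresholds for housing. Of all genes 0.748% did so in mLN and 1.05% in pLN. It measured 42.6, 32.4 and 42.0 RPKM in mLN SPF, 14.1, 23.4 and 16.1 in mLN GF, 71.0, 46.6 and 58.0 in pLN SPF, and 23.3, 28.5 and 20.2 in pLN GF. SPF libraries lay above GF libraries at both locations, by 1.10 ± 0.19 in mLN (limma, adjusted p = 0.00327) and 1.24 ± 0.19 in pLN (adjusted p = 0.00106). At the adjusted p alone, the list that holds Socs1 gave 1 higher and 1 lower gene in mLN (2.53% and 2.08% of all genes). In pLN it gave 2 higher and 1 lower (4.05% and 6.74%). The lower gene was Ptpn1, by -0.47 in mLN (limma, adjusted p = 0.0453) and -0.48 in pLN (adjusted p = 0.0244).

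Of 41 further interferon-induced genes tested, 8 were lower and 0 higher in mLN in SPF mice past both thresholds (6.41% and 3.99% of all genes), and 11 lower and 1 higher in GF mice (6.87% and 4.57% of all genes). Lower in both were Cxcl9 and Cxcl10, chemokines that recruit CXCR3-bearing T cells, Ifi47 and Tgtp2 of the IRG family, Gbp4, and the antigen processing genes Psmb8, Psmb9 and Tap1. Cxcl9 was at 1.03 ± 0.0439 RPKM in mLN SPF and 20.7 ± 1.78 in pLN SPF, and at 1.23 ± 0.457 and 31.7 ± 8.50 in GF mice, with differences of -3.42 and -3.86 (limma, adjusted p = 1.22e-09 and 5e-10). Within GF mice Ifi44, Epsti1 and Psmb10 were lower in mLN than in pLN in addition. Ifi204, a sensor of DNA, was higher in mLN there by 1.23 ± 0.19 (limma, adjusted p = 7.77e-05). For housing 0 of the 41 passed both thresholds in limma at either location (0.748% of all genes in mLN and 1.05% in pLN).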

How the data were processed

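Non-endothelial SCs were sorted, and cDNA made with SMART-Seq v4 was turned into libraries with Nextera XT and read for 50 bases from one end on a HiSeq2500, without strand. The processing notes and the methods name TopHat2 1.2.0 for alignment to GRCm38 (mm10) and HTSeq 0.12.4 for read counting. From the counts of each library the authors calculated the deposited RPKM. The 8 deposited columns of the authors' DESeq2 comparisons (fold changes and p-values) were not used. The sources used here do not state how the genes of this table were selected. In 18 symbols a spreadsheet had made a date, and these genes are not named.

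Groups follow the sample titles. The labels' source field calls the pLN both skin-draining and mesenteric. RPKM were tested with limma 3.58.1 (R 4.3.3) on log2(RPKM + 1), with all 12 libraries in 1 fit of 4 group means (8 residual degrees of freedom, 15.1 after moderation) and p-values adjusted over 9764 genes. The filter left out 489 of the 10253 genes. The fit was tested on simulated data. Whole reads were recovered for 99.8% of genes (relative tolerance 1e-05) and served to give depth and for an alternative. The lowest chi-square per degree of freedom between libraries of a group was 4.52, so no 2 files held the same library. RPKM near 1 rest on few reads. Figures and other steps used Python 3.11.15.

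Genes named with values in each library, or its range, are those past both thresholds in a pairwise comparison, Irf1, Irf3, and the highest and lowest of each role group. Isg15, Irgm1, Bst2 and Eif2ak2 were added after their values were seen. Pathway genes are named where they passed both thresholds. A gene of the pathway lists is not reported here and was left out of their counts. The genes, lists and motifs were chosen with earlier results of these data known.

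Titles number the libraries 1 to 3 in each group. Deviations from group means correlated at 0.263, 0.456 and 0.182 between same-numbered mLN and pLN libraries of SPF mice. By a rule of every pair above 0.1, that comparison was treated as paired by number. Some different-numbered libraries of SPF mice correlated as well, mLN 1 with pLN 3 at 0.303 and mLN 3 with pLN 1 at 0.209. The rule did not set same against different numbers, so it cannot show that the numbers pair the libraries. In GF mice same-numbered mLN and pLN libraries gave 0.228, 0.217 and 0.0793, and between housings 5 of 6 same-numbered pairs were below 0. The alternatives tried were a pseudocount of 0.1, no filter, median-of-ratios rescaling, only the groups compared in the fit, limma with trend and robust on, limma-voom on recovered reads, a replicate block, the adjusted p alone, and leaving out each library.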

Additional observations from a re-analysis of the deposited data

How the results depend on the processing

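The location calls past both thresholds were the same 4 genes in SPF mice in every alternative that kept the fold threshold, and in GF mice they ranged from 4 to 6 when a library was left out. Housing gave 0 to 1 in mLN (without replicate 2 of mLN GF Ifitm1 passed at -1.19, adjusted p = 0.014), 0 in pLN, and the interaction 0 to 1 when a library was left out. With the adjusted p alone the counts were 18, 19, 7 and 5 for SPF location, GF location, mLN housing and pLN housing. Leaving out a library moved these to 15 to 18, 16 to 21, 3 to 11 and 4 to 7, and a pseudocount of 0.1 gave 4 for mLN housing. The number of genes above 0 in mLN housing was 37 to 41 when a library was left out.

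With the replicate block the counts past both thresholds were 4, 6, 0, 0 and 0, as without it, so the pairing changed no call past both thresholds of the SPF location comparison, and at the adjusted p alone it added Sp100. The other comparisons did not meet the pairing rule. There the block with only the groups compared, chosen after seeing the data, gave 2 in place of 5 for pLN housing at the adjusted p alone, where Irgm1, Usp18, Bst2 and Eif2ak2 no longer passed and Ifitm1 did (lower in SPF mice). For mLN housing it gave 6 higher and 1 lower, and with all groups in the fit 5 higher and 1 lower, the lower gene being Ifitm1. Irf1 held at both locations and Irgm1 and Cmpk2 in mLN in 20 of 20 alternatives, and Zbp1 was lost in mLN without replicate 3 of mLN SPF (adjusted p = 0.0508). No gene changed sign while past the adjusted p of 0.05 in either fit, though genes near 0 did, 6 of 42 in SPF location, 8 in GF location, 4 in mLN housing, 13 in pLN housing and 16 in the interaction. Depth limits the genes of few reads, and 3 libraries a group limit all of them.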
